A study of Mus musculus with 35 samples.

Results

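The ETS genes Erf, Etv3, Etv4, Etv5, Etv6, Elk1, Elk3, Elk4, Ets1 and Ets2 were followed in 35 arrays of mouse lung RNA, 1 array per animal. These 10 genes, taken by symbol, are 10 of 19938 genes measured. Each was read from the probe set (a group of probes for 1 gene) that carried 1 gene symbol and had the highest mean over all arrays. That choice mattered for Etv5 alone, whose kept probe set averaged 9.63 and whose other probe set averaged 9.21 log2 units over all arrays, while the other 9 genes had 1 probe set each. The genes were chosen by family and role, and selected on 2 measured values of these arrays, a higher Erf signal with CO2 at low stretch and a lower Etv5 signal after low stretch ventilation. Both differences are therefore given below as descriptions, without a test.

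All animals were adult male C57BL/6J mice of 20 to 25 g, and every lung was lavaged before it was frozen. High stretch hypercapnia mice (10 arrays) and high stretch normocapnia mice (10 arrays) received 3 h of ventilation with tidal volumes of 35 to 40 mL/kg at 30 to 35 breaths per minute. Their peak pressure was 27 cmH2O and their end-expiratory pressure 0, in an inspired oxygen fraction of 0.75 with a CO2 fraction of 0.12 or 0. Low stretch hypercapnia mice (5 arrays, CO2 fraction 0.12 in room air) and low stretch normocapnia mice (5 arrays, room air) received 3 h of ventilation at 10 mL/kg and 135 breaths per minute, with 2 cmH2O at the end of expiration. Non-ventilated mice (5 arrays) breathed room air spontaneously. The series asks how hypercapnia, a raised CO2 level, alters the lung injury that a ventilator causes. High and low stretch differed in pressure, rate and oxygen as well as in volume, and these cannot be told apart.

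Values are log2 signals, so a difference of 1 is a doubling, and each is a level of RNA in whole lung and not of protein or of its phosphorylation. Array medians lay between 6.96 and 7.05, and the number of arrays limits the precision. The tissue label was checked with defining lung genes. Sftpc, a surfactant protein gene of alveolar type 2 cells, averaged 14.01 to 14.04 in the 5 groups, Ager of type 1 cells 12.90 to 12.95 and Scgb1a1 of club cells 13.72 to 13.77. Replicates 8 and 10 of high stretch hypercapnia stood apart from the other 8 arrays of that group in several ETS genes, being highest in Ets1, Ets2 and Etv6 and lowest in Etv5 and Elk3. Their mean over 10 neutrophil markers was 10.46 and 11.11, against 9.43 to 10.50 in the other 8. Replicate 8 lay above the other 8 in the mean of 8 T cell markers (7.64, against 7.32 to 7.44). It did so too for 9 B cell markers (7.23, against 6.69 to 7.10), and replicate 10 lay within both ranges. Both arrays lay below the other 8 in the mean of 10 endothelial markers (10.85 and 10.82, against 10.86 to 10.99), of 10 alveolar type 2 markers (11.87 and 11.88, against 11.90 to 12.04) and of 8 type 1 markers (11.24 and 11.25, against 11.30 to 11.49). For the ETS genes, differences called in that group are also given without them, and correlations are not.

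ETS factors share a DNA-binding domain that recognises the core GGAA, and many of them are phosphorylated by the kinase ERK, the last step of the Ras to ERK cascade downstream of growth factor receptors. Erf and Etv3 encode repressors that ERK phosphorylation removes from the nucleus or inactivates, and Etv6 encodes a repressor that forms polymers. Elk1, Elk3 and Elk4 encode the ternary complex factors, which bind DNA together with serum response factor (SRF) and drive immediate-early genes once phosphorylated, with Elk3 acting as a repressor before that. Etv4 and Etv5 belong to the PEA3 group of activators, which fibroblast growth factor signalling induces in several tissues, and Etv5 maintains alveolar type 2 cells in the mouse. Ets1 and Ets2 encode activators whose potency ERK raises, Ets1 being abundant in endothelium and lymphocytes.

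The start-site windows of Erf, Elk3 and Etv5, which differed with CO2, and of Etv3, a repressor gene called for stretch with and without CO2, are shown to place the ETS core in the genes that encode ETS factors. They run from 250 bases before to 50 bases after an annotated start, come from RefSeq on GRCm38.p6, and are printed 5′ to 3′ as listed for the gene's strand, with the core GGAA or its reverse complement TTCC in capitals.
Erf, chr7:25250709-25251008, minus strand: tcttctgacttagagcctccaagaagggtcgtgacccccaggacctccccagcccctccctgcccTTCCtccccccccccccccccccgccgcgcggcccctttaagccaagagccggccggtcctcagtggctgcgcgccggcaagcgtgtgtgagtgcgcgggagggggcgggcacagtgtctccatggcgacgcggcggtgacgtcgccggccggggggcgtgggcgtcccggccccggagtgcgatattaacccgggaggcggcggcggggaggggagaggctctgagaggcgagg
Etv3, chr3:87525328-87525627, plus strand: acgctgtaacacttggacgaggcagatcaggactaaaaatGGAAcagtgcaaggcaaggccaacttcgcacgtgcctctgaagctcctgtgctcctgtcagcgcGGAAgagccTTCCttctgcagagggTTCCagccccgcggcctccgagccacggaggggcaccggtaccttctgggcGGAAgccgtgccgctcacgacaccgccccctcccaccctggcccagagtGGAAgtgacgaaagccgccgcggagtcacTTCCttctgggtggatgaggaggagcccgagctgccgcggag
Elk3, chr10:93311110-93311409, minus strand: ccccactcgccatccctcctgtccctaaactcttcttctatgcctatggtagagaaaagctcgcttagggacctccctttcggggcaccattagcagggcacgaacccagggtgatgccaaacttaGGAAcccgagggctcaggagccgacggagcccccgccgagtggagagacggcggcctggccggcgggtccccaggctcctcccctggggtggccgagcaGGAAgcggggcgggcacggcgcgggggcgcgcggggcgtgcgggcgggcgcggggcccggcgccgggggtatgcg
Etv5, first start, chr16:22439521-22439820, minus strand: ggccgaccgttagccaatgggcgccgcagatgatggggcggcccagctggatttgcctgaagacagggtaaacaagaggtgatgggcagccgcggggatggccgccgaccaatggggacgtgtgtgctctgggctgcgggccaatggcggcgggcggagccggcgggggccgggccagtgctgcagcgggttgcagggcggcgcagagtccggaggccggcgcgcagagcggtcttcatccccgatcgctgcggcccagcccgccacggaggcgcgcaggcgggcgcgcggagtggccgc
Etv5, second start, chr16:22438319-22438618, minus strand: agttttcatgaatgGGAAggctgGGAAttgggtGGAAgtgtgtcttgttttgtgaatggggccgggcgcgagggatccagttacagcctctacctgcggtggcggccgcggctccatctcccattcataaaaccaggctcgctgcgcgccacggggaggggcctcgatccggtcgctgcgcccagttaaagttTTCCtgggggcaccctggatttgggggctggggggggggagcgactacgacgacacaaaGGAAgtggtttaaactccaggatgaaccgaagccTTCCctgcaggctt
The Erf window held 1 core, Etv3 7, Elk3 2, the first Etv5 start 0 and the second Etv5 start 6. Of the 10 genes 8 were in the sequence table (not Etv4 and Ets1), with 11 windows in all, and 10 of these 11 held at least 1 core on either strand. For comparison, 96.0% of the 32851 windows of the table held the core, with a median of 3 matches. The longer form CCGGAAG, which contains the core, was in 1 of the 11 windows (a start of Elk4) and in 8.86% of all windows, both strands searched. The CArG box, the site of SRF, was in none of the 11 windows and in 1.63% of all windows. A match is a run of letters and not a measured binding site.

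In each comparison between groups the ETS genes differed by less than 0.5 log2 units. Leaving out Etv5, whose value there chose the genes, low stretch normocapnia differed from non-ventilated lungs in 3 of the other 9 genes, with Etv3 higher and Elk3 and Ets1 lower, where limma called 11.8% of all genes (6.63% higher and 5.17% lower) at a Benjamini-Hochberg adjusted p under 0.05. Leaving out Erf for the same reason, low stretch hypercapnia differed from low stretch normocapnia in 0 of the other 9 genes, where limma called 0.115% of all genes (0.0401% higher and 0.0752% lower) and 1839 genes had an unadjusted p under 0.05. High stretch hypercapnia differed from high stretch normocapnia in 3 genes, with Erf higher and Etv5 and Elk3 lower, where 5.56% of all genes passed (2.49% higher and 3.07% lower). Of all genes called there 44.8% were higher, or 32.9% when arrays were centred on their median.

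The stretch comparisons called Etv3 and Elk4 both with and without CO2. Of the 9 genes other than Erf, high stretch normocapnia differed from low stretch normocapnia in 2, Etv3 and Elk4, both higher. There 18.3% of all genes passed (8.72% higher and 9.56% lower). Erf is not counted there because the same low stretch normocapnia arrays served in choosing it. Those arrays served in choosing Etv5 too, which stays among the 9 without passing and is a description. Arrays are likewise shared by Erf for ventilation and for stretch in hypercapnia, and by Etv5 for CO2 at low stretch. None of these passed, and they are not read as tests. High stretch hypercapnia differed from low stretch hypercapnia in 4 genes, with Etv3 and Elk4 higher and Etv5 and Elk3 lower, where 10.1% of all genes passed (5.43% higher and 4.69% lower). The median absolute difference of the 10 genes was 0.20 log2 units in that comparison and 0.09 over all genes, and 0.16 against 0.09 in the stretch comparison without CO2. It was 0.18 against 0.09 for low stretch ventilation, 0.07 against 0.07 for CO2 at low stretch and 0.06 against 0.06 for CO2 at high stretch. These medians include the values that chose the genes. The comparisons share groups of arrays, so their calls are not independent of each other.

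**Figure D1:**
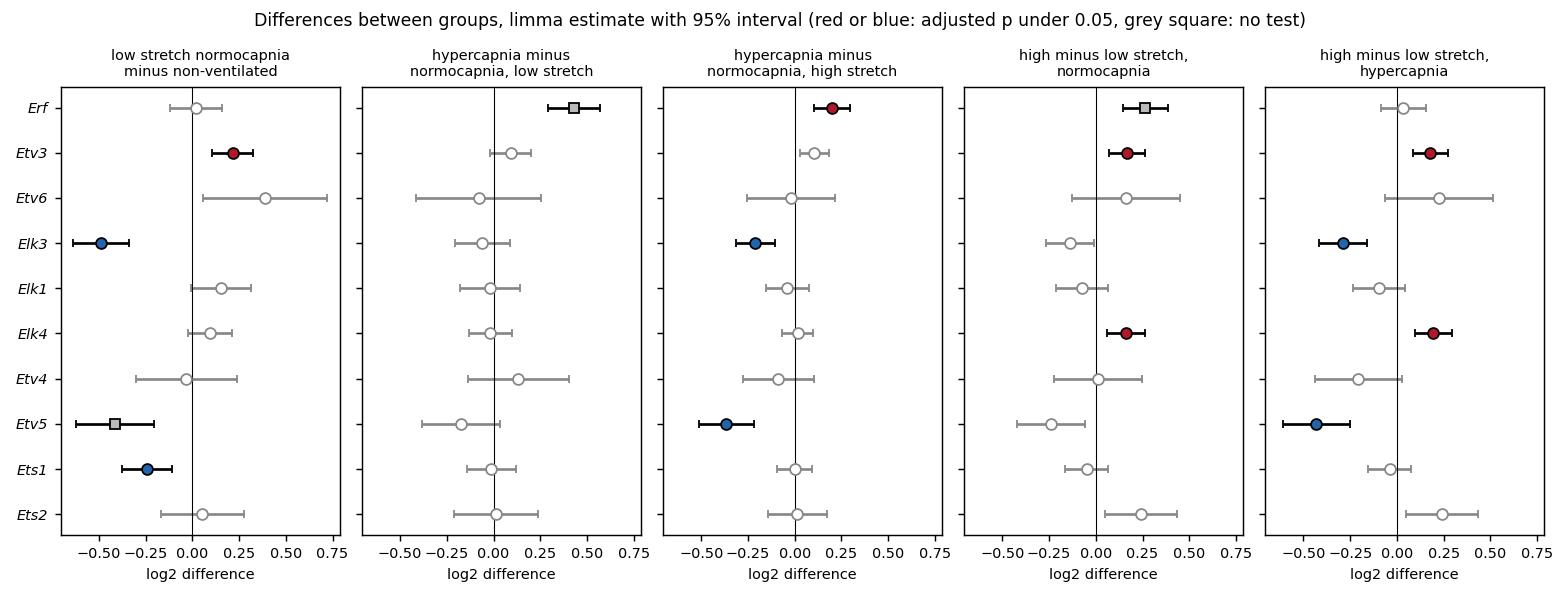
Differences between groups for the 10 ETS genes on the log2 scale (horizontal axis, limma estimate with its 95% interval), 1 panel per comparison, red for higher and blue for lower at an adjusted p under 0.05. Erf lies to the right of 0 in both CO2 panels, and Etv5 and Elk3 lie to the left of 0 in all 5 panels, with open symbols for differences that did not pass. Grey squares mark Erf for CO2 at low stretch and for stretch in normocapnia, and Etv5 for low stretch ventilation. These are given without a test, because their values or their arrays served in choosing the genes. Other Erf and Etv5 differences that use arrays from the choice of that gene are descriptions too, drawn as open circles.

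Among the repressors, Erf was higher with CO2 at both stretch levels. Its level was 8.04 to 8.36 with a median of 8.15 in the 10 high stretch hypercapnia lungs, and 7.72 to 8.14 with a median of 8.01 in the 10 high stretch normocapnia lungs. In the low stretch hypercapnia lungs it was 8.20, 8.04, 8.14, 8.23 and 8.05, and in the low stretch normocapnia lungs 7.80, 7.73, 7.69, 7.70 and 7.60. Non-ventilated lungs had 7.65, 7.72, 7.75, 7.67 and 7.63. The low stretch lungs with CO2 all lay above those without it, and the low stretch lungs without CO2 lay in the range of the non-ventilated ones apart from 1 array above and 1 below it.

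In high stretch lungs, whose arrays played no part in the known difference, Erf rose 1.15-fold with CO2 (log2 difference 0.20 ± 0.05, SE, limma adjusted p 0.00991). There 6 of 10 arrays with CO2 exceeded all those without it. At low stretch the difference was 1.35-fold (0.43 ± 0.07, SE), given as a description. The low stretch effect chose the gene, so nothing is read here from a test of its difference from the high stretch effect. Without high stretch hypercapnia replicates 8 and 10 the high stretch CO2 difference was 0.18 ± 0.05 (SE, limma adjusted p 0.0312).

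The stretch differences of Erf share low stretch arrays with the known difference and are given as descriptions. High stretch normocapnia lay 0.27 ± 0.06 (SE) above low stretch normocapnia, with 8 of 10 arrays above every low stretch array. With CO2 the level averaged 8.17 ± 0.10 at high stretch (SD, n = 10) and 8.13 ± 0.09 at low stretch (SD, n = 5), a difference of 0.03. From high to low mean the groups ran high stretch hypercapnia, low stretch hypercapnia, high stretch normocapnia, low stretch normocapnia and non-ventilated, where the first pair and the last pair did not differ beyond their spread and the middle pair was not compared. No cell type marker of 68 passed for CO2 at low stretch. There 0.115% of all genes passed, too few to read the 0 as a result on the cell mix. At high stretch 1 of 68 passed (the type 2 transporter gene Slc34a2, lower by 0.23), where 5.56% of all genes did. For stretch in normocapnia 9 of 68 rose and 5 fell, where 8.72% of all genes rose and 9.56% fell. Among them 7 of 9 B cell markers were higher and 3 of 10 endothelial markers lower. The part of these cell types in the Erf values was not tested in any of these comparisons.

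**Figure D2:**
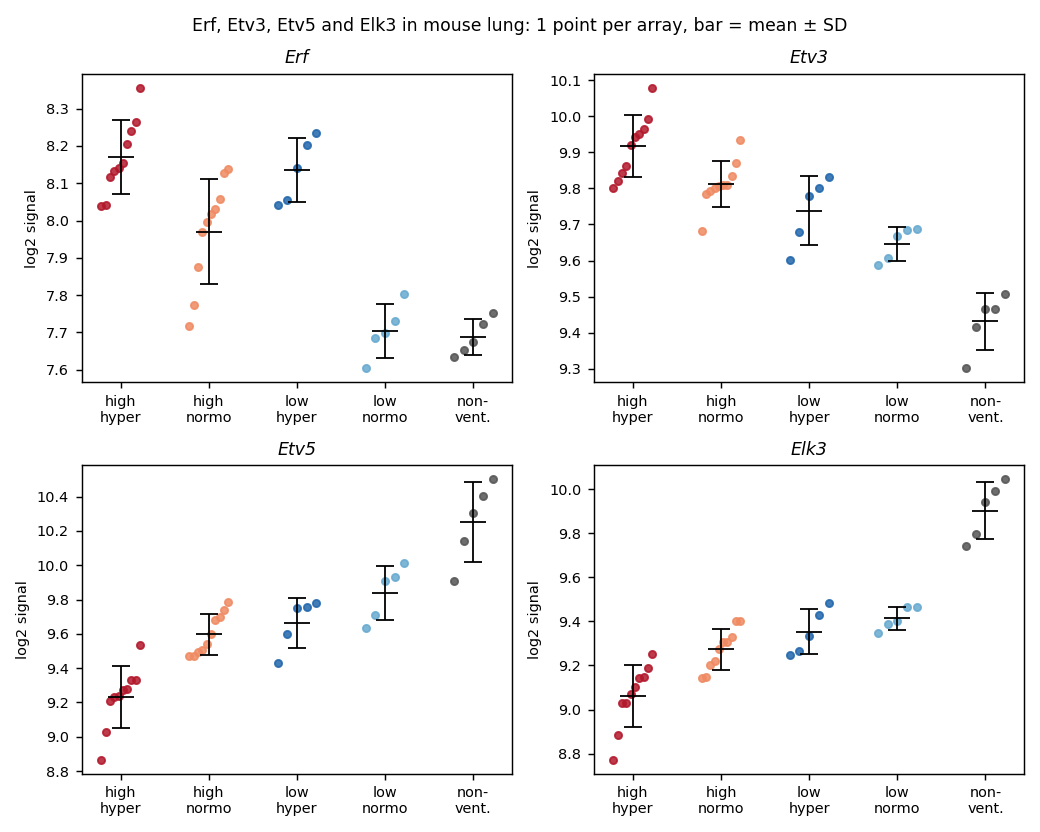
Log2 signal (vertical axis) of Erf, Etv3, Etv5 and Elk3 in every array by group, points sorted by value within a group, with the mean and SD as bars. Erf is at 8.04 or higher in every hypercapnia array, Etv3 is lowest in the non-ventilated group, and Etv5 and Elk3 have their highest mean in that group and their lowest in high stretch hypercapnia.

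Etv3, the repressor most like Erf in its regulation by ERK, rose with ventilation and again with stretch. Its level was 9.80 to 10.08 with a median of 9.93 in high stretch hypercapnia lungs and 9.68 to 9.94 with a median of 9.81 in high stretch normocapnia lungs. Low stretch hypercapnia lungs had 9.80, 9.60, 9.78, 9.83 and 9.68, low stretch normocapnia lungs 9.69, 9.68, 9.61, 9.67 and 9.59, and non-ventilated lungs 9.42, 9.47, 9.51, 9.30 and 9.46. Every ventilated array of the 4 groups lay above every non-ventilated array.

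For low stretch ventilation the rise was 0.22 ± 0.05 (SE, limma adjusted p 0.00613), which did not pass when only those groups were fitted (limma adjusted p 0.0596). Neutrophil markers rose for 10 of 10 in the same comparison, with array means of 9.79 to 10.72 in low stretch normocapnia and 6.53 to 8.93 in non-ventilated lungs. Their part in the Etv3 value was not tested, and in whole lung fewer cells of a type and less RNA per cell cannot be told apart. The arrays of these groups did not overlap for Etv3, Elk3 or Ets1, 3 of the 10 genes, as for 8.19% of all genes. High stretch exceeded low stretch by 0.18 ± 0.05 with CO2 (SE, limma adjusted p 0.0104) and by 0.17 ± 0.05 without it (SE, limma adjusted p 0.0105). With the replicate number as a block neither stretch difference passed (limma adjusted p 0.0982 and 0.0966), and the difference with CO2 was lost without low stretch hypercapnia replicate 2 (0.14, limma adjusted p 0.0669) and when only those groups were fitted (limma adjusted p 0.0637). Without replicates 8 and 10 of high stretch hypercapnia it was 0.15 (limma adjusted p 0.035). For CO2 itself Etv3 was at 0.11 at high stretch (limma adjusted p 0.107) and 0.09 at low stretch (limma adjusted p 0.648), so neither passed.

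Etv6, the polymer-forming repressor, did not pass in any comparison, and its arrays spread widely. It ranged from 8.48 to 9.58 in high stretch hypercapnia, 8.73 to 9.20 in high stretch normocapnia, 8.42 to 9.18 in low stretch hypercapnia, 8.45 to 9.15 in low stretch normocapnia and 8.04 to 8.59 in non-ventilated lungs. The low stretch normocapnia mean exceeded the non-ventilated mean by 0.39 with a 95% interval of 0.05 to 0.72 (limma adjusted p 0.134). In none of the 3 comparisons that involve high stretch did the arrays of both groups stay apart for any of the 10 genes, as they did for 6.58% of all genes for high against low stretch without CO2, 2.75% with CO2 and 0.436% for CO2 at high stretch. For CO2 at low stretch they stayed apart for 2.02% of all genes and, among the 10, for Erf, whose value there chose the genes.

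Of the ternary complex factors, Elk3 fell with ventilation and again with CO2 at high stretch. Its level was 8.77 to 9.25 with a median of 9.09 in high stretch hypercapnia lungs and 9.14 to 9.40 with a median of 9.29 in high stretch normocapnia lungs. Low stretch hypercapnia lungs had 9.25, 9.48, 9.34, 9.43 and 9.26, low stretch normocapnia lungs 9.35, 9.40, 9.46, 9.39 and 9.46, and non-ventilated lungs 10.04, 9.99, 9.80, 9.74 and 9.94. All 30 ventilated arrays lay below the 5 non-ventilated ones.

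Low stretch ventilation lowered Elk3 1.40-fold (log2 difference -0.49 ± 0.07, SE, limma adjusted p 1.21e-05). CO2 at high stretch lowered it 1.16-fold (-0.21 ± 0.05, SE, limma adjusted p 0.00991), with 7 of 10 hypercapnia arrays below every normocapnia array. High stretch hypercapnia lay below low stretch hypercapnia by 0.29 ± 0.06 on the log2 scale (SE, limma adjusted p 0.00202). Without replicates 8 and 10 of high stretch hypercapnia these last differences were -0.15 (limma adjusted p 0.0409) and -0.23 (limma adjusted p 0.00714). CO2 at low stretch gave -0.06 (limma adjusted p 0.889) and high stretch without CO2 gave -0.14 (limma adjusted p 0.132), which did not pass.

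Endothelial markers moved beside Elk3 in the ventilation comparison. There 6 of 10 fell and none rose, and their mean level per array was 10.93 to 11.12 in low stretch normocapnia lungs and 11.29 to 11.38 in non-ventilated lungs, with no marker near 0. For CO2 at high stretch none of the 10 passed, and the mean was 10.82 to 10.99 in high stretch hypercapnia and 10.76 to 11.04 in high stretch normocapnia. For high against low stretch with CO2, 3 of the 10 fell and 1 rose, with a mean of 10.82 to 10.99 in high and 10.74 to 11.13 in low stretch hypercapnia. The part of these cells in the Elk3 values was not tested.

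Elk4, a ternary complex factor that binds with SRF, was higher at high stretch both with and without CO2. Its level was 9.74 to 10.01 with a median of 9.83 in high stretch hypercapnia lungs and 9.76 to 9.93 with a median of 9.85 in high stretch normocapnia lungs. Low stretch hypercapnia lungs had 9.60, 9.58, 9.76, 9.79 and 9.56, and low stretch normocapnia lungs 9.64, 9.66, 9.64, 9.62 and 9.81. Non-ventilated lungs had 9.64, 9.61, 9.67, 9.46 and 9.53. The high stretch arrays overlapped with the top of each low stretch group.

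High stretch raised Elk4 by 0.20 ± 0.05 with CO2 (SE, limma adjusted p 0.00824) and by 0.16 ± 0.05 without it (SE, limma adjusted p 0.0184). Both calls were lost with the replicate number as a block (limma adjusted p 0.0934 and 0.155), the one with CO2 when only those groups were fitted (limma adjusted p 0.0523), and the one without CO2 when low stretch normocapnia replicate 3 (limma adjusted p 0.0573) or 4 (limma adjusted p 0.0625) was left out. Without replicates 8 and 10 of high stretch hypercapnia the difference with CO2 was 0.17 (limma adjusted p 0.0305). Elk1, the founding ternary complex factor, did not pass in any comparison and its group means lay between 8.26 in low stretch normocapnia and 8.11 in non-ventilated lungs. In both stretch comparisons B cell markers rose beside Etv3 and Elk4, 5 of 9 with CO2 and 7 of 9 without it. Their mean per array was 6.69 to 7.23 in high against 6.30 to 6.79 in low stretch hypercapnia, and 6.93 to 7.45 in high against 6.52 to 7.09 in low stretch normocapnia, and their part was not tested.

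Among the activators, Etv5 had the widest span of group means of the 10 genes, 9.23 ± 0.18 in high stretch hypercapnia (SD, n = 10) to 10.25 ± 0.23 in non-ventilated lungs (SD, n = 5). Its level was 8.87 to 9.54 with a median of 9.25 in high stretch hypercapnia lungs and 9.47 to 9.79 with a median of 9.57 in high stretch normocapnia lungs. Low stretch hypercapnia lungs had 9.43, 9.75, 9.78, 9.60 and 9.75, low stretch normocapnia lungs 9.63, 9.91, 10.01, 9.93 and 9.71, and non-ventilated lungs 10.40, 10.50, 10.31, 10.14 and 9.91. In high stretch hypercapnia 9 of 10 arrays lay below every high stretch normocapnia array.

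CO2 at high stretch lowered Etv5 1.29-fold (log2 difference -0.37 ± 0.07, SE, limma adjusted p 0.00148). High stretch hypercapnia lay below low stretch hypercapnia 1.35-fold (-0.43 ± 0.09, SE, limma adjusted p 0.00119). Without replicates 8 and 10 of high stretch hypercapnia these were -0.30 (limma adjusted p 0.00742) and -0.36 (limma adjusted p 0.00494). The second Etv5 probe set gave -0.28 ± 0.07 (SE, limma adjusted p 0.021) and -0.39 ± 0.09 (SE, limma adjusted p 0.00492) when all probe sets were fitted.

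The remaining Etv5 differences share arrays with the known difference and are given as descriptions. Low stretch normocapnia lay below non-ventilated lungs by 0.41 ± 0.10 (SE), the difference known when the genes were chosen. High stretch normocapnia was at -0.24 ± 0.09 (SE) against low stretch normocapnia, and CO2 at low stretch was at -0.18 ± 0.10 (SE). Of the 10 alveolar type 2 markers, a cell type in which Etv5 acts, 1 of 10 fell and none rose with CO2 at high stretch, and their mean per array was 11.87 to 12.04 in high stretch hypercapnia and 11.92 to 12.03 in high stretch normocapnia. For high against low stretch with CO2 2 of 10 fell, with a mean of 11.87 to 12.04 in high and 11.92 to 12.07 in low stretch hypercapnia. The part of that cell type in the Etv5 values was not tested.

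Etv4, the other PEA3 member of the list, did not pass in any comparison. Its group means lay between 6.15 in high stretch hypercapnia and 6.36 in low stretch hypercapnia, and the non-ventilated arrays ran from 5.84 to 6.76, a wider range than any mean difference.

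Ets1, an activator of endothelium and lymphocytes, fell with low stretch ventilation and did not pass in the other comparisons. Low stretch normocapnia lungs had 10.37, 10.40, 10.36, 10.36 and 10.44, and non-ventilated lungs 10.88, 10.60, 10.50, 10.51 and 10.66, so these groups did not overlap. The difference was -0.24 ± 0.06 (SE, limma adjusted p 0.0103), and without non-ventilated replicate 1, the highest array, it was -0.18 (limma adjusted p 0.0608). When only those groups were fitted its limma adjusted p was 0.0873. The means in the 4 ventilated groups lay between 10.34 and 10.39. In that comparison endothelial markers fell for 6 of 10, T cell markers for 4 of 8 and B cell markers for 9 of 9, where 5.17% of all genes fell. Endothelial array means were 10.93 to 11.12 in low stretch normocapnia against 11.29 to 11.38 in non-ventilated lungs. T cell means were 7.01 to 7.54 against 7.33 to 7.77, and B cell means 6.52 to 7.09 against 7.75 to 8.41. The part of these cell types in the Ets1 values was not tested.

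Ets2, the partner activator, was at 0.24 for high against low stretch in both CO2 states without passing (limma adjusted p 0.0993 with CO2 and 0.074 without). It ranged from 10.73 to 11.55 with a median of 10.86 in high stretch hypercapnia and from 10.74 to 11.05 with a median of 10.98 in high stretch normocapnia. Low stretch hypercapnia lungs had 10.70, 10.56, 10.66, 10.83 and 10.74, low stretch normocapnia lungs 10.89, 10.70, 10.65, 10.67 and 10.51, and non-ventilated lungs 10.61, 10.46, 10.64, 10.60 and 10.84. The highest values of high stretch hypercapnia, 11.55 and 11.27, were replicates 8 and 10, and without them the stretch difference with CO2 was 0.13 (limma adjusted p 0.271).

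**Figure D3:**
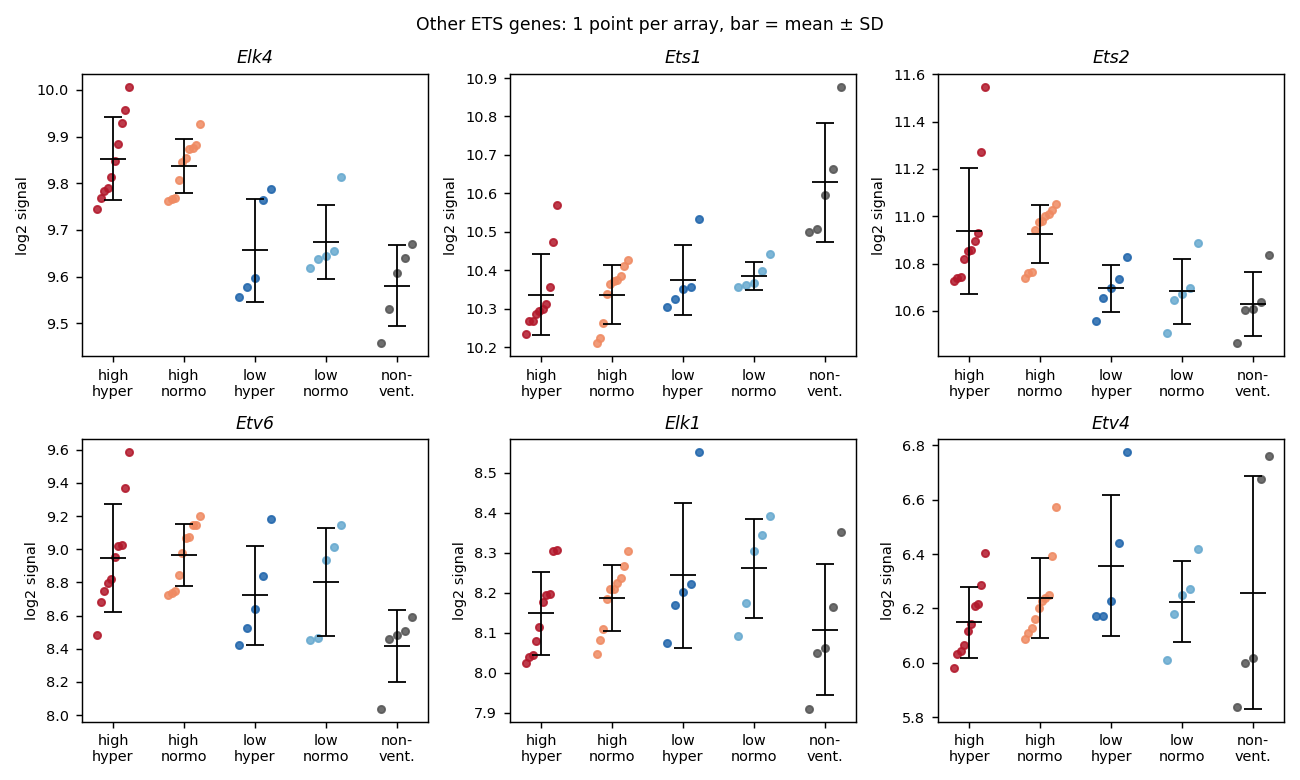
Log2 signal (vertical axis) of Elk4, Ets1, Ets2, Etv6, Elk1 and Etv4 in every array by group, points sorted by value within a group, with the mean and SD as bars. Elk4 is higher in both high stretch groups, Ets1 is highest in non-ventilated lungs, and the highest arrays of high stretch hypercapnia in Ets2 and Etv6 are replicates 8 and 10.

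No gene passed the limma test of whether CO2 acted differently at high and low stretch. Of 19938 genes 0 passed (percent called 0) and 893 had an unadjusted p under 0.05, none of them among the members other than Erf.

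Genes listed as induced by ERK signalling differed widely with stretch. This list and those of the next paragraphs were chosen with earlier results of these data known, so their counts are descriptions. Of 15 ERK feedback and response genes 9 rose, 1 fell and 5 did not pass for high against low stretch with CO2 (median log2 difference 0.31), and 10 rose, 1 fell and 4 did not pass without CO2 (median 0.58), where 10.1% and 18.3% of all genes passed and their medians were -0.03 and -0.02. Phlda1 rose by 1.09 with CO2 and 1.56 without, the growth regulator gene Myc by 1.17 and 1.50, the cytokine gene Lif by 0.88 and 1.17, and Ier3 by 0.80 and 1.15. The gene that fell was Il17rd, an inhibitor of fibroblast growth factor signalling, at -0.38 with CO2 and -0.31 without. For CO2 at high stretch 2 of 15 fell and none rose, where 3.07% of all genes fell. These were Phlda1 at -0.41 (limma adjusted p 0.0189) and Myc at -0.41 (limma adjusted p 0.0284).

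Targets of SRF and the ternary complex factors, mostly immediate-early genes, also rose with stretch. Of 13 genes 10 rose with stretch in hypercapnia (median 0.79) and 11 in normocapnia (median 1.05), and none fell, where 5.43% and 8.72% of all genes rose. Egr2 rose by 1.56 with CO2 and 2.29 without, Fosb by 1.35 and 2.14, Nr4a1 by 1.50 and 1.68 and Egr1 by 1.27 and 1.89. Srf, the partner of the Elk proteins, rose by 0.72 ± 0.05 and 0.74 ± 0.05 (SE). With CO2 at high stretch 1 of 13 fell, Egr2 at -0.56 (limma adjusted p 0.0138), and none rose, where 3.07% of all genes fell.

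In the cascade, listed together with Rps6ka3, a kinase gene downstream of ERK, the differences were at most 0.32 log2 units among the genes that passed. Of the 9 measured genes of this list 2 rose with stretch in hypercapnia, Nras by 0.30 and the ribosomal S6 kinase gene Rps6ka3 by 0.28. In normocapnia 3 rose, Rps6ka3 by 0.32, Nras by 0.27 and the ERK-activating kinase gene Map2k1 by 0.24. Of all genes 5.43% rose in hypercapnia and 8.72% in normocapnia. None of the 9 passed for CO2 at either stretch level or for ventilation. Of 9 partners in repression, such as corepressors and Cic, a repressor of PEA3 genes, only the corepressor gene Sin3a passed. It was lower with stretch by 0.15 with CO2 and 0.16 without, where 4.69% and 9.56% of all genes were lower.

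Endothelial genes known as ETS targets fell with low stretch ventilation in 9 of 14 cases, where 5.17% of all genes fell. None rose, and the median was -0.36 (all genes -0.01). Sox17 was lowered by 0.78, Egfl7 by 0.72, Kdr by 0.71 and Angpt2 by 0.68 on the log2 scale. These targets share 7 genes with the endothelial markers, so they are not a separate measure. For CO2 at high stretch none of the 14 passed (median 0.04).

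**Figure D4:**
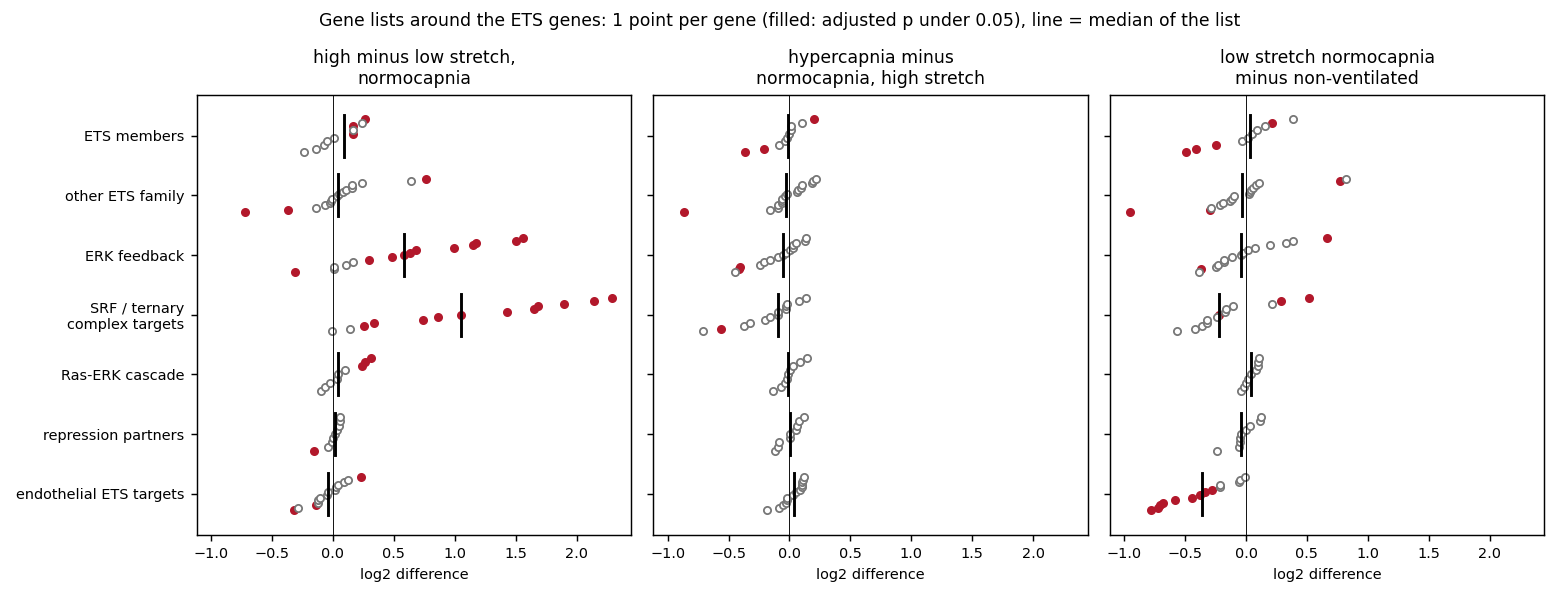
Log2 differences (horizontal axis) of the genes in 7 lists, 1 point per gene, filled where the adjusted p was under 0.05, with the list median as a line, for high against low stretch in normocapnia, CO2 at high stretch and low stretch ventilation. The ERK feedback and SRF target lists lie mostly right of 0 in the first panel only, with medians of 0.58 and 1.05, while the ETS members stay within 0.5 log2 units of 0 in all panels. The ETS row is drawn with Erf in the first and Etv5 in the third panel, which are descriptions. The lists were chosen with earlier results of these data known.

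Elsewhere in the ETS family some differences exceeded 0.5 log2 units. Of 16 other family members 1 rose and 1 fell with stretch in hypercapnia, and 1 rose and 2 fell in normocapnia, shares near the 10.1% and 18.3% of all genes that passed. Elf3, an epithelial activator, rose by 0.54 with CO2 and 0.76 without (limma adjusted p 5.26e-05 and 5.34e-08). Etv1, the PEA3 relative of Etv5, was at -0.58 with CO2 and -0.72 without (limma adjusted p 0.00165 and 5.46e-05), and Elf5 was at -0.37 without CO2 (limma adjusted p 0.0236). CO2 at high stretch lowered 1 of 16, the macrophage factor gene Spic at -0.86 (limma adjusted p 0.0207), a share near the 5.56% of all genes that passed there. With low stretch ventilation Spi1, which encodes the myeloid factor PU.1, rose by 0.77, while the B cell factor gene Spib fell by 0.96 and the endothelial factor gene Erg fell by 0.29. Neutrophil markers rose for 10 of 10 there, with array means of 9.79 to 10.72 in low stretch normocapnia and 6.53 to 8.93 in non-ventilated lungs, and their part in the Spi1 value was not tested.

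Genes whose profile over the 35 arrays was most like that of a member were found by Pearson correlation over all genes, which is a description since the 5 groups themselves separate the arrays. For Erf they were Pmvk, an enzyme gene of the mevalonate pathway (r 0.88, Spearman rho 0.87), Spaca6 (r 0.86, rho 0.80) and the T cell lineage factor gene Zbtb7b (r 0.85, rho 0.87). Within the 10 high stretch hypercapnia and the 10 high stretch normocapnia arrays the r of Erf was 0.41 and 0.79 with Pmvk, 0.86 and 0.57 with Spaca6, and 0.56 and 0.28 with Zbtb7b. For Etv3 they were Arih2 (r 0.93), Pmvk (r 0.93) and Ppp1r2 (r 0.92), with rho of 0.86, 0.90 and 0.87. For Elk4 they were the protease gene Adamts1 (r 0.91), Arf4 (r 0.89) and Medag (r 0.89), with rho of 0.90, 0.86 and 0.88. Pmvk was among the 3 nearest genes of both Erf and Etv3. Elk3 was the third nearest gene of Etv5 (r 0.91, rho 0.87), a pair chosen after its values were seen. Its r was 0.91 within high stretch hypercapnia and 0.03 within high stretch normocapnia. Replicates 8 and 10 of high stretch hypercapnia were the lowest arrays of that group in both genes, and r without them is not given.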

How the data were processed

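Lung RNA of 35 mice was measured on 1 Affymetrix array per animal. Per the submitters' processing notes the authors used RMA, Affymetrix Expression Console and Partek, with no version or role stated. The deposited values are log2 signals, per the range of the values and the labels. The table held 35557 probe sets, of which 21789 carried 1 gene symbol, and 1 probe set was kept for each of 19938 genes, that of the highest overall mean, with no filter on level. Per-sample columns left unused numbered 0.

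A model of 5 group means on all 35 arrays was fitted in R 4.3.3 by the lmFit and eBayes functions of limma 3.58.1, with 6 contrasts, two-sided, adjusted by Benjamini-Hochberg over all genes within a contrast, at a threshold of 0.05. The procedure was tested on simulated data. Errors are limma SE for differences and SD over arrays for means. Replicates are separate animals. Alternatives were other fits, filters, scalings, probe sets and left-out arrays.

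All 10 members are named in every comparison, with at most 4 genes of a list and the 3 genes most like a member. Members and gene lists were chosen with earlier results of these data known. Some listed genes were not analysed here.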

Additional observations from a re-analysis of the deposited data

Results flagged for a closer look

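In 3 of 50 groups of a member, 1 array lay apart from the rest by more than Dixon's critical value, where chance gives about 1 in 20, or 2.5. Etv6 was 8.04 in non-ventilated replicate 4, and the nearest other array of the group was at 8.46. Elk4 was 9.81 in low stretch normocapnia replicate 5, and the nearest was at 9.66. Ets1 was 10.53 in low stretch hypercapnia replicate 4, and the nearest was at 10.36. No member, Erf included, had CO2 effects at high and low stretch that passed the limma test of their difference. For Erf nothing is read from that test, because its low stretch effect chose the gene. In no member did all arrays move in opposite directions.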

How the results depend on the processing

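No member difference that passed changed direction under the alternatives run, though differences that had not passed and lay near 0 sometimes did. Over all members, comparisons and alternatives, 16 results came to pass the threshold and 13 no longer did, the same difference counting once per alternative. Most of the 16 were Etv5 for stretch in normocapnia, a description. Elk3 (3 comparisons), Erf with CO2 at high stretch, and Etv5 with CO2 at high stretch and with stretch in hypercapnia kept their calls in all of them. With only the groups compared in the fit, 2 members were called for low stretch ventilation (all genes 1385, against 2353). For CO2 at low stretch the count was 0 (all genes 0, against 23). Stretch called 5 in normocapnia (all genes 3992, against 3646) and 2 in hypercapnia (all genes 1389, against 2017). The 2 for ventilation include Etv5, and the 5 include Erf and Etv5, which are descriptions. With the replicate number as a block, stretch called 2 members in hypercapnia (all genes 1269, against 2017). In normocapnia it called Erf, a description there, and no other member (all genes 2626, against 3646). Same-numbered residuals correlated at -0.31 to 0.38 over the comparisons, so the numbers were not taken as pairs. For stretch in normocapnia all 5 correlations were positive (0.04 to 0.26, mean 0.16, against -0.02 for other numbers). There 4 of 5 arrays correlated best with their own number. For low stretch ventilation all 5 were positive too (0.02 to 0.19, mean 0.12, against -0.03), and 2 of 5 correlated best with their own number. In that comparison the block called 4 members, Etv5 included (all genes 2361, against 2353). Both patterns are hints from the data and not from the design. Array weights gave 2052 genes for CO2 at high stretch, against 1109. For stretch in normocapnia they gave 6 members (all genes 5030, against 3646). A fit of only the genes above the median level gave 5 members there (3372 of the genes kept). Erf and Etv5, descriptions there, are among the 6 and the 5. For CO2 at low stretch the count of 23 genes became 4 with all probe sets, 100 with array spread as a covariate, 78 with genes above the median level and 64 after a second quantile normalization. Ets2 for stretch in normocapnia passed under several alternatives, with a limma adjusted p of 0.0076 under array weights. The cause of these moves was not tested.

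Leaving out 1 array at a time gave 3 members (all genes 855 to 1176) for CO2 at high stretch, 3 to 4 (1278 to 2191) for stretch in hypercapnia, 2 to 5 (2581 to 3768) for stretch in normocapnia, 1 (3 to 28) for CO2 at low stretch, 3 to 4 (1749 to 2405) for ventilation and 0 for the difference between the CO2 effects. The counts of members include Erf for CO2 at low stretch and for stretch in normocapnia, and Etv5 for ventilation, whose values or arrays chose the genes, so nothing on stability is read from those. The 1278 genes came without low stretch hypercapnia replicate 5 and the 5 members without low stretch normocapnia replicate 1. For CO2 at low stretch the count of all genes fell to between 3 and 14 without low stretch hypercapnia replicate 1, 3, 4 or 5 or low stretch normocapnia replicate 3, 4 or 5. Leaving out high stretch hypercapnia replicates 8 and 10 together, chosen after seeing the data, gave 1280 genes for CO2 at high stretch and 1499 for stretch in hypercapnia. Each low stretch or non-ventilated group holds 5 arrays, which limits its precision.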
